A study of Picea abies with 36 samples.

Results

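The response of the Norway spruce (Picea abies) hypocotyl to a cytokinin was examined at the last of 3 collections, 15 days after a single application. The 3 libraries labelled BAP 15 days were set against the 3 labelled Mock 15 days, 6 of the 36 libraries of the series, and were chosen by their labels alone. Seedlings grown for 2 weeks in a phytotron received hormone in lanolin, a wool-wax paste, on the middle of the hypocotyl, the stem between root and cotyledons. BAP (6-benzylaminopurine, an aromatic cytokinin used in tissue culture) was given at 135 mM, the auxin IAA (indole-3-acetic acid) at 50 mM, the combination BAP+IAA held both at these concentrations, and Mock is named without a hormone. The same 4 treatments were also collected at 5 and 10 days, with 3 libraries in each of the 12 groups. The labels name no separate plants or pools behind the replicates, so the spread behind each p-value is that between libraries and may be technical. RNA came from whole hypocotyls, so fewer cells of a type and less RNA per cell cannot be told apart.

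Cytokinins are bound by membrane-anchored histidine kinases, and the signal passes through a phosphorelay to response regulators in the nucleus that switch target genes. In seed plants they promote cell division, maintain shoot meristems and stimulate the vascular cambium, and in conifer tissue culture BAP is applied to induce adventitious buds. Auxin works through another receptor system and is known to act with or against cytokinin depending on the tissue. The deposited table gives identifiers of gene models without gene names, so no member of these pathways and no marker of the hypocotyl could be looked up. Gene models are therefore described as groups, and 4 are followed by identifier.

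At 15 days BAP and Mock differed across a large part of the measured transcriptome. Of 38239 gene models tested, 12400 (32.4%) differed between BAP and Mock, 6052 higher (15.8%) and 6348 lower (16.6%), in edgeR's quasi-likelihood test at a Benjamini-Hochberg adjusted p of 0.05. Among the higher models, 2799 stood at least 2-fold above Mock, 1637 at least 4-fold, 539 at least 16-fold and 118 at least 64-fold. Among the lower ones, 3278, 1432, 212 and 37 passed those limits. The typical change was modest, with a median fold of 1.87 for the higher models and 2.05 for the lower ones. Folds are ratios of pooled group levels, with a group that had under 3 reads set to 3, so a fold against such a group is a lower bound. Every BAP library lay beyond every Mock library for 5684 of the higher models (93.9%) and 6053 of the lower ones (95.4%). The same libraries gave the calls, so this is a description and no separate support. Over all tested models the groups did not overlap at 16594 (43.4%), in either direction, and 11737 of these were the called ones. Which direction held more models depended on the scaling. Scaled by library totals alone, 7692 were higher and 5277 lower, the median log2 fold of all models being 0.1 and not 0.004.

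**Figure D1:**
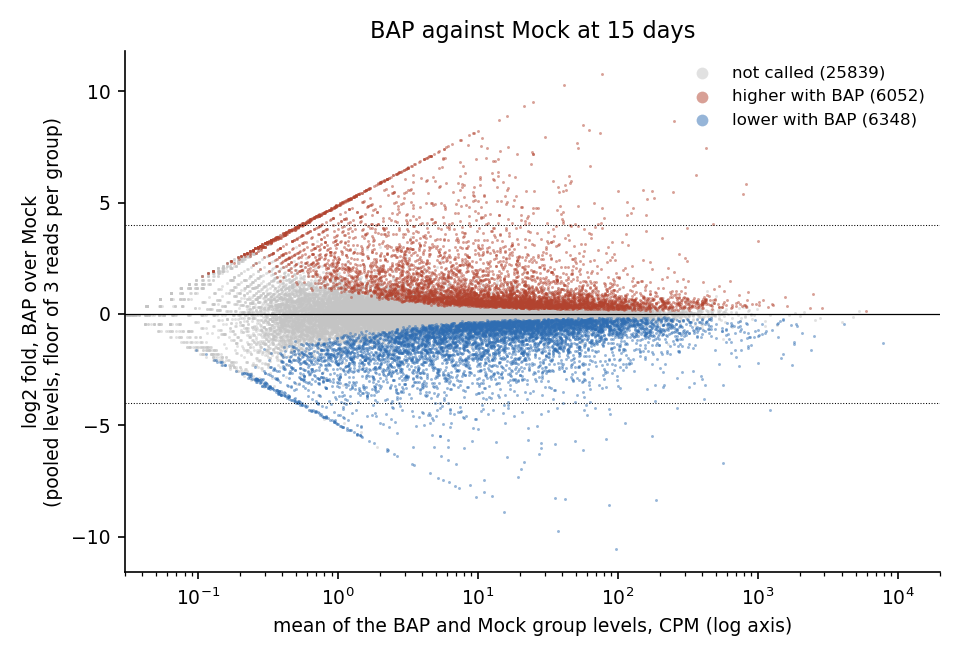
Each point is a gene model, with the mean of the BAP and Mock levels at 15 days in CPM on a log axis and the log2 fold of BAP over Mock, from pooled levels with a floor of 3 reads per group, on the other axis. Red points are the 6052 models called higher and blue points the 6348 called lower (edgeR, n = 3 a group); dotted lines mark a 16-fold change, and the slanting edges are models with almost no reads in 1 group.

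Models that were not called differed in how well they were measured. Of 25839 uncalled models, 8814 (34.1%) had a 95% interval of the log2 change that stayed within a 1.5-fold change either way, and their median level in Mock was 15.8 CPM (counts divided by the TMM-scaled library size, on a shared scale). The 8814 include models without a read in either group. Their computed interval has no width and does not show a steady level. For another 9938 (38.5%) the interval reached beyond a 2-fold change, and their median Mock level was 0.983 CPM. A missing call in the latter group says little about the gene. A further 1130 models were called although their whole interval lay within 1.5-fold.

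The called models held a large share of all reads, and that share differed between BAP and Mock. The higher models held 30, 31.3 and 32.8% of the reads of BAP replicates 1, 2 and 3, but 17.8, 17.7 and 17.8% of the Mock reads. The lower models held 23.1, 21.5 and 20.7% of the reads with BAP and 38.6, 37.5 and 37.9% in Mock. These shares describe models chosen by direction on the same libraries, and as parts of a fixed total they do not give amounts of RNA. The gain was spread over many models, with 334 of the 6052 (5.52%) giving 50% of the summed gain in CPM and the first 10 giving 8.94%. The loss was somewhat more concentrated, with 226 of 6348 (3.56%) giving 50% of it and the first 10 giving 13%.

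Reads were spread over more genes in the BAP libraries as a whole. The 100 most abundant models took 14.5, 14.1 and 14.3% of the reads with BAP against 16.9, 16.4 and 16.9% in Mock. The number of models that together made up 50% of the reads was 1602, 1654 and 1624 with BAP, and 1442, 1488 and 1438 in Mock. After thinning to 13372754 reads, the smallest of the 6 totals, 41311, 41359 and 41425 models had at least 1 read with BAP, and 40915, 41189 and 40942 in Mock. The groups did not overlap in any of these 3 measures, and the exact permutation test gave p = 0.1 (2-sided) for each, the smallest value that 3 against 3 libraries allow. Without thinning the detected models were 41579 ± 66.6 with BAP and 41297 ± 327 in Mock (SD, n = 3; exact permutation p = 0.3).

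Among models at 1 CPM or more in untreated hypocotyls, the share called lower went up with the level. Models were sorted by their mean CPM in the Mock libraries of 5 and 10 days, which take no part in the 15-day contrast. CPM is not divided by gene length, so a class mixes abundant short and less abundant long transcripts. Between 1 and 10 CPM, 2143 and 2138 of 16755 were called, 12.8% on each side. Between 10 and 100 CPM, 17.2% of 12348 models were higher and 25% lower. At 100 CPM or more, 399 of 1879 (21.2%) were higher and 752 (40%) lower. Of the 20 most abundant models, all at 2220 CPM or more, 11 were lower and 3 higher, with a median log2 change of -0.5. Below 1 CPM, 1380 of 7257 tested models were called higher and 376 lower, and 421 of the 539 rises of at least 16-fold lay in this class. These counts are a description only. A model this low in Mock could pass the low-count filter through a treated group in which it was high, models low in every group were not tested, and a fall from below 1 CPM has little room above the floor. Models with few reads also pass the test only with large folds, so the shares are not of equal precision across classes.

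**Figure D2:**
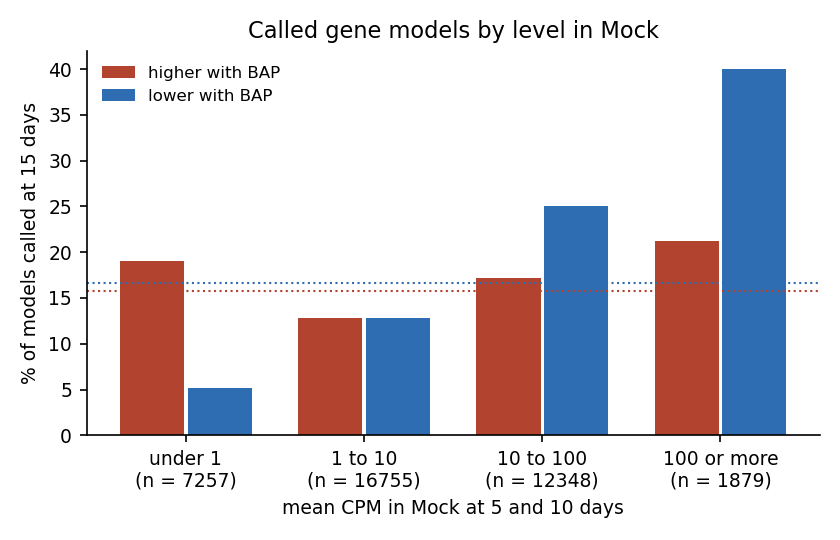
Bars give the percentage of gene models called higher (red) or lower (blue) with BAP at 15 days in 4 classes of mean CPM in Mock at 5 and 10 days, with the number of models under each class. Dotted lines are the percentages over all tested models, 15.8% higher and 16.6% lower; falls go from 12.8% at 1 to 10 CPM to 40% at 100 CPM or more. Models in the class under 1 CPM could pass the low-count filter through a treated group in which they were high.

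A group of 466 higher models had at most 3 reads over the 3 Mock libraries of 15 days, 204 of them none at all. They could pass the low-count filter only through other groups, so their number is a description. With BAP their median level was 1.2 CPM, 267 reached 1 CPM and 18 reached 10 CPM, and the highest stood at 82.1 CPM. All 3 BAP libraries had reads of 440 of them. Their summed level was 939, 1190 and 1630 CPM in BAP replicates 1, 2 and 3. It was 9.88, 13.2 and 10.5 CPM in Mock at 15 days, the libraries used to choose them. In Mock libraries not used for the choice the sum was 19, 24.9 and 30 CPM at 5 days and 222, 72.8 and 25.1 CPM at 10 days. Replicate 1 of Mock at 10 days thus stood above the other Mock libraries. These genes were not silent in every condition without BAP, since 375 of the 466 had over 3 reads in the IAA group of the same day, and 213 in Mock at 10 days.

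The reverse group of 198 lower models had at most 3 reads over the 3 BAP libraries, 70 of them none. These too could pass the low-count filter only through other groups, so their number is a description. Their median level in Mock was 0.811 CPM and the highest was 30.6 CPM. Summed, they stood at 362, 316 and 362 CPM in Mock at 15 days and at 6.58, 4.88 and 3.98 CPM with BAP. Mock libraries of the earlier days, which the choice did not use, held 395, 335 and 434 CPM at 5 days and 291, 294 and 308 CPM at 10 days. BAP libraries of those days held 77.8, 49.1 and 50 CPM at 5 days and 27.5, 23.8 and 15.5 CPM at 10 days. The loss was thus present at both earlier collections, with no overlap between BAP and Mock at 5 or 10 days. At 15 days the separation follows from the choice.

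The 4 gene models followed here are extremes of the 15-day contrast and do not show its typical change. Each was chosen among called models whose BAP and Mock libraries of 15 days did not overlap, so that separation was fixed by the choice. MA_19953g0020 had the largest log2 rise among models averaging at least 1 CPM in both groups. It had 267, 685 and 565 CPM in BAP replicates 1 to 3 and 2.18, 0.315 and 1.21 CPM in Mock. All BAP libraries were far above all Mock libraries. The log2 change was 8.66 ± 1.36 (SE; edgeR adjusted p = 1.5e-05), or 408-fold on pooled levels, and it became 9.43 without Mock replicate 1, which held 35 of the 56 Mock reads. At 5 days the BAP libraries had 0.385, 7.32 and 61.4 CPM, and at 10 days 38.9, 193 and 624 CPM. Replicates differed widely on both days. Mock had 0, 0 and 0.693 CPM at 5 days and 25, 7.99 and 0.398 CPM at 10 days. BAP was called above Mock on both days (log2 6.41 ± 1.82 and 4.74 ± 1.05, SE, with edgeR adjusted p = 0.01 and 0.001). At 5 days, however, the groups overlapped. BAP replicate 3 held 934 of the 1065 BAP reads of that day, and all 12 Mock reads came from Mock replicate 3. The effect at 15 days was not called different from that at 5 or 10 days (edgeR adjusted p = 0.89 and 0.52). IAA alone brought this model to 1020, 797 and 1230 CPM at 15 days and the combination to 1040, 1180 and 1240 CPM. On top of IAA the BAP effect was 0.19 ± 0.843 on the log2 scale (SE; edgeR adjusted p = 0.9), and it was lower than the effect without IAA by a log2 difference of -8.48 ± 1.6 (SE; edgeR adjusted p = 0.00083).

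MA_10103038g0010 had the largest gain in CPM. It stood at 1450, 1870 and 2140 CPM with BAP and at 75.9, 194 and 321 CPM in Mock. The groups were far apart, although the Mock libraries spanned a wide range. The log2 change was 3.21 ± 0.48 (SE; edgeR adjusted p = 8.1e-06). With BAP its mean was 637 ± 273 CPM on day 5, 1520 ± 378 on day 10 and 1820 ± 344 on day 15, and in Mock 92.4 ± 54.9, 100 ± 76.5 and 197 ± 123 CPM (SD, n = 3). IAA gave 3130 ± 357 CPM at 15 days and the combination 1910 ± 309 CPM (SD, n = 3). The BAP effect on top of IAA was thus not called (log2 -0.71 ± 0.441, SE; edgeR adjusted p = 0.24) and lay below the effect without IAA (log2 difference -3.92 ± 0.644, SE; edgeR adjusted p = 0.00021).

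The steepest fall by the same criterion was that of MA_112831g0010, from 365, 290 and 461 CPM in Mock to 2.49, 0.514 and 0.321 CPM with BAP. No BAP library came near a Mock library. Its log2 change was -8.38 ± 0.936 (SE; edgeR adjusted p = 6e-08), 330-fold on pooled levels, and -9.78 without BAP replicate 1, which held 39 of the 52 BAP reads. The fall was deeper at 15 than at 5 days. BAP libraries had 24.2, 6.33 and 16.2 CPM at 5 days and 13.4, 10 and 3.82 CPM at 10 days, while Mock had 39.3, 281 and 282 CPM and then 187, 312 and 224 CPM. The difference between the effects at 15 and 5 days was called (log2 -4.67 ± 1.17, SE; edgeR adjusted p = 0.034). That between 15 and 10 days was not (log2 -3.64 ± 1.21, SE; edgeR adjusted p = 0.3). BAP lowered it on top of IAA too, from 33.5, 260 and 42 CPM to 0.0612, 0.0693 and 0.289 CPM (log2 -9.61 ± 1.24, SE; edgeR adjusted p = 5e-07).

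MA_10431300g0020 had the largest loss in CPM. Its level in Mock was 11000, 10300 and 12200 CPM, and with BAP 5230, 4110 and 4180 CPM, each BAP library well below each Mock library. The log2 change of -1.31 ± 0.213 (SE; edgeR adjusted p = 2.2e-05) was close to those of -1.11 ± 0.212 at 5 days and -1.12 ± 0.213 at 10 days, and neither difference between days was called (edgeR adjusted p = 0.85 and 0.94). IAA alone gave 4010 ± 1050 CPM and the combination 2520 ± 45.5 CPM (SD, n = 3).

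**Figure D3:**
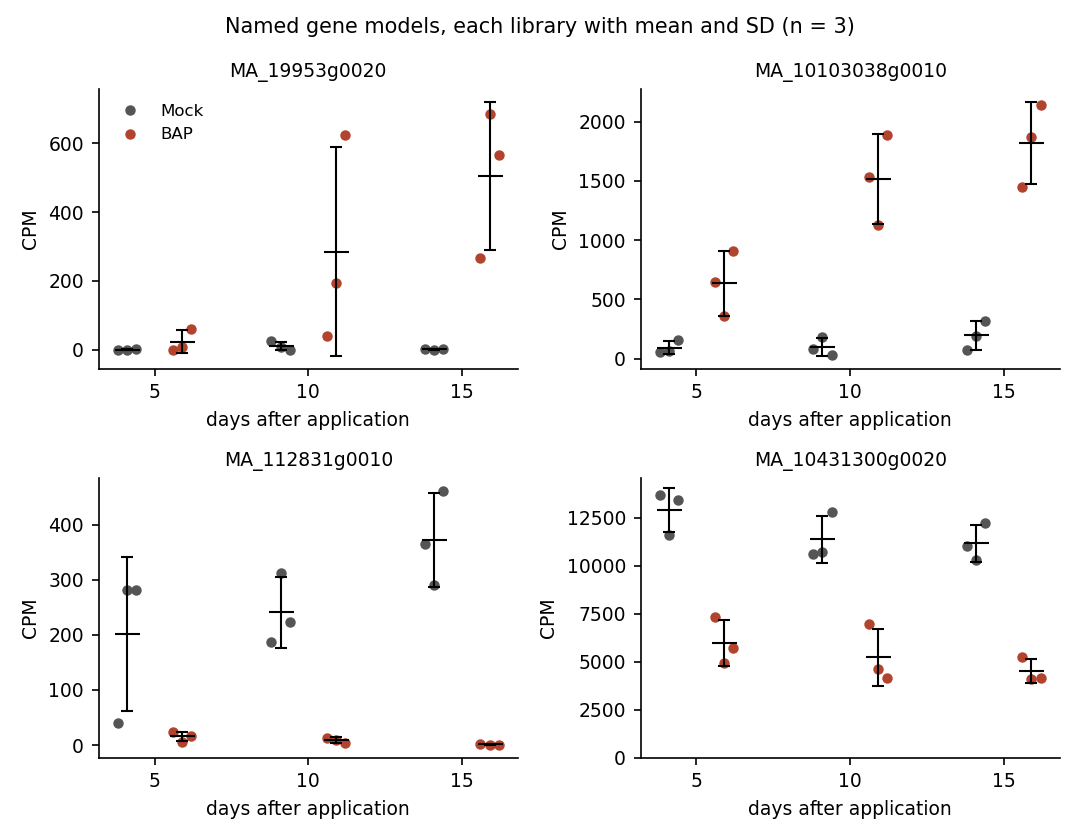
Points are single libraries of BAP (red) and Mock (grey) at 5, 10 and 15 days in CPM, with the mean and SD of 3 libraries as a bar, for the 4 named gene models. The 4 were chosen among models whose BAP and Mock libraries do not overlap at 15 days. MA_19953g0020 ranges from 38.9 to 624 CPM among the BAP libraries of 10 days.

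Most strong falls were already called at 5 days, and most strong rises were not. Contrasts of different days share no library, so BAP against Mock at 5 days (4275 models higher, 11.2%, and 5344 lower, 14%) and at 10 days (5424 higher, 14.2%, and 6282 lower, 16.4%) give separate readings of the genes called at 15 days. Of the 212 models lowered at least 16-fold at 15 days, 189 (89.2%) were already called lower at 5 days and 202 (95.3%) at 10 days. Of the 539 models raised that far, 140 (26%) were called higher at 5 days and 304 (56.4%) at 10 days. Median levels at 5 days were 0.551 CPM with BAP and 0.133 CPM in Mock for the 539, and 0.485 and 5.36 CPM for the 212. Of the 539, 421 averaged under 1 CPM in Mock at 5 and 10 days, where only large folds pass the test. The shares called therefore do not compare the timing of rises and falls. The median fold of these 539 was 3.32 on day 5, 6.4 on day 10 and 31.9 on day 15, the last being the day that chose them. For the 212 falls the medians were 7.45, 15.5 and 26.3. The difference between the effects at 15 and 5 days, which uses the 15-day libraries again, was called at 24 of the 539 and at 29 of the 212.

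Read as summed levels, the 539 strongly raised models stood at 2680, 3450 and 4540 CPM in the BAP libraries of 5 days, 7350, 7520 and 13000 CPM at 10 days, and 12100, 17400 and 21900 CPM at 15 days. Replicate 3 had the highest sum on each day and was the highest of the BAP libraries at 15 days for 324 of the 539 models. Mock libraries held 306 to 695 CPM at 5 days, 380 to 2110 CPM at 10 days and 400 to 473 CPM at 15 days. Each BAP library was above each Mock library, with replicate 1 of Mock at 10 days closest. For the libraries of 15 days this follows from the choice. Among the BAP libraries of 15 days, 246 of the 539 models varied by less than 2-fold and 33 by at least 10-fold. The strongly lowered models were more even in Mock, where 145 of 212 varied by less than 2-fold and 5 by at least 10-fold. Their sums were 956, 606 and 755 CPM with BAP at 5 days, 566, 460 and 312 CPM at 10 days and 373, 204 and 275 CPM at 15 days. In Mock they ran from 3970 to 8190 CPM at 5 days, 6100 to 7450 CPM at 10 days and 8590 to 8970 CPM at 15 days.

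**Figure D4:**
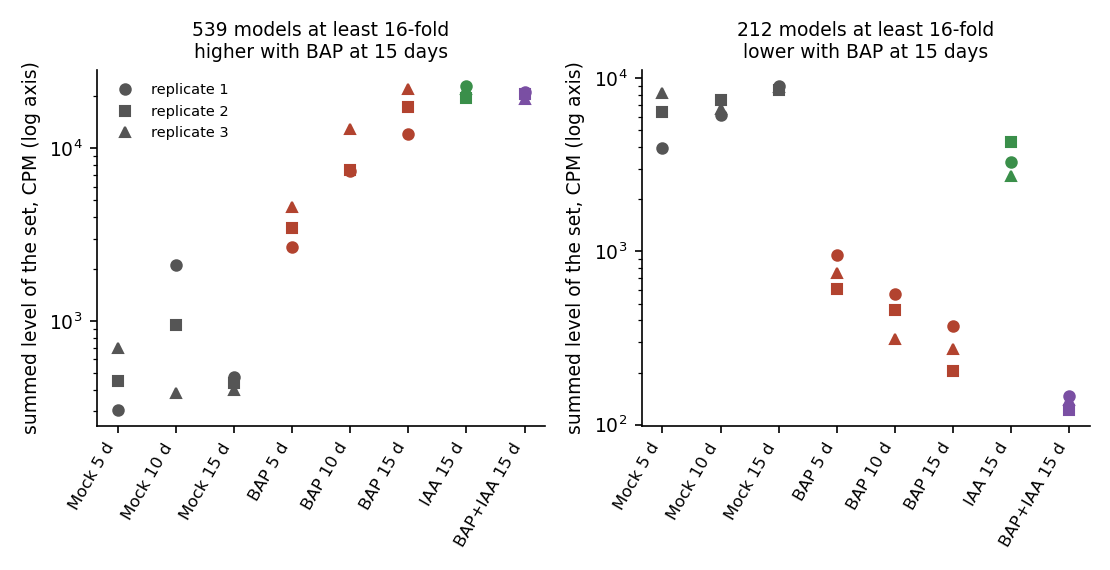
Summed CPM (log axis) of the 539 models at least 16-fold higher (left) and the 212 at least 16-fold lower (right) with BAP at 15 days, 1 point per library with symbols for the replicate number. BAP libraries (red) lie above Mock (grey) on the left and below it on the right on all 3 days, although only the 15-day BAP and Mock libraries were used to choose the models; IAA is green and BAP+IAA purple.

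Over all called models the pattern was milder. Of the 6348 lower models, 3860 (60.8%) were also called lower at 5 days and 4657 (73.4%) at 10 days, and of the 6052 higher models 2555 (42.2%) and 3538 (58.5%) were called higher. Models called at neither earlier day numbered 2194 among the higher (36.3%) and 1287 among the lower (20.3%). A call on 1 day only does not show a difference between days, and the effects at 15 and 5 days were called different at 134 of those 2194 and 29 of those 1287. Opposite calls were rare. At 5 days 22 of the higher models had been called lower and 8 of the lower models higher, and the difference between days was called at each of them. That difference uses the libraries behind both calls. At 10 days the numbers were 14 and 2, with the difference called at 11 and 0 of them. Across all tested models the log2 folds correlated at r = 0.67 between 5 and 15 days and 0.77 between 10 and 15 days, over 38239 models that are not independent of each other.

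Choosing the models on the 10-day libraries leaves both the 5-day and the 15-day values unused by the choice. The 170 models raised at least 16-fold at 10 days had a median fold of 8.8 at 5 days and 26 at 15 days, and 148 were called higher at 15 days. The 147 lowered that far had medians of 11.6 and 24.9, and 136 were called lower. For all 5424 models called higher at 10 days the median fold was 1.47 at 5 days and again 1.47 at 15 days. For the 6282 called lower it was 1.65 and 1.83. Among the latter the effect went farther from Mock at 15 than at 5 days at 282 models and came nearer at 31, and among the former at 110 and 14.

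The direct test of the change between days called few models against the size of the response. It called 675 of 38239 models (1.77%) between 15 and 5 days. The BAP effect at 15 days was above that at 5 days at 326 models (0.853%) and below it at 349 (0.913%). Of the 326, 267 were called higher than Mock at 15 days, and of the 349, 316 were called lower. The test contains the BAP and Mock libraries of both days, so these calls and the following median levels result in part from the choice. The median level of the 326 went from 9.67 CPM at 5 days to 29.9 CPM at 15 days with BAP, and from 12.4 to 11.2 CPM in Mock. That of the 349 went from 17.9 to 9.38 CPM with BAP and from 26.7 to 35.8 CPM in Mock. Taken alone, the BAP libraries of 15 and 5 days differed at 8566 models (22.4%) and the Mock libraries at 960 (2.51%). The 326 fell to 154 without BAP 15 days replicate 3, 214 without its replicate 2, 171 and 181 without Mock 15 days replicates 1 and 3, 193 without BAP 5 days replicate 1 and 193 without Mock 5 days replicate 3. The 349 fell to 167 and 199 without replicates 3 and 2 of BAP at 15 days. DESeq2 called 864 and 524.

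Between 10 and 15 days 60 models (0.157%) were called, 52 above (0.136%) and 8 below (0.0209%). This result rested on single libraries. Leaving out any of the 12 libraries except BAP 10 days replicate 3 moved the 52 by more than 1.5 times, to between 0 and 146, and the 8 went to between 0 and 32. Where edgeR called 0 models, 1236 to 1656 had an unadjusted p under 0.05. DESeq2 on all libraries called 273 and 46.

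BAP acted on many of the same models when auxin was present. The comparison of BAP+IAA with IAA at 15 days shares no library with BAP against Mock, and it called 5448 models higher (14.2%) and 6404 lower (16.7%). Of the 5448, 2982 were also higher with BAP alone, which is 54.7% of that list and 49.3% of the 6052, and 183 (3.36%) were lower. Of the 6404, 3133 were also lower with BAP alone, 48.9% of that list and 49.4% of the 6348, and 293 (4.58%) were higher. Effects were smaller on the side that did not choose the models. Those raised on top of IAA had a median fold of 1.85 there and 1.44 with BAP alone, and those lowered 2.9 and 1.5. The 6052 higher models had medians of 1.87 with BAP alone and 1.34 on top of IAA, and the 6348 lower models 2.05 and 1.43. Over all tested models the log2 folds of the 2 comparisons correlated at r = 0.51.

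Whether IAA altered the BAP effect was tested directly as the difference of the 2 comparisons, which was called at 4001 models (10.5%), 1813 with a positive difference (4.74%) and 2188 with a negative one (5.72%). At 1044 of the 6052 higher models (17.3%) the effect was smaller or opposite on top of IAA, and at 100 it was greater. At 1102 of the 6348 lower models (17.4%) it was smaller or opposite, and at 237 greater. Among the 539 strong rises 187 (34.7%) had the smaller effect and 3 the greater, and among the 212 strong falls 23 (10.8%) and 1. This difference contains the BAP and Mock libraries that chose the models. The median level of the 539 was 0.0886 CPM in Mock, 5.02 with BAP, 1.17 with IAA and 7.49 with both, and the median fold on top of IAA was 5.86 against 31.9 without it. The median level of the 212 was 6.81 CPM in Mock, 0.128 with BAP, 1.91 with IAA and 0.0897 with both, with a median fold of 13 on top of IAA against 26.3 without it. With both, that level lies near the floor of 3 reads (0.0673 CPM), and with IAA alone the models start lower than in Mock. The room for a fall is thus smaller on top of IAA, and these median folds do not compare the effects evenly. Summed, the 539 held 22800, 19500 and 21900 CPM with IAA and 21100, 20500 and 19300 CPM with both, groups that overlapped.

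**Figure D5:**
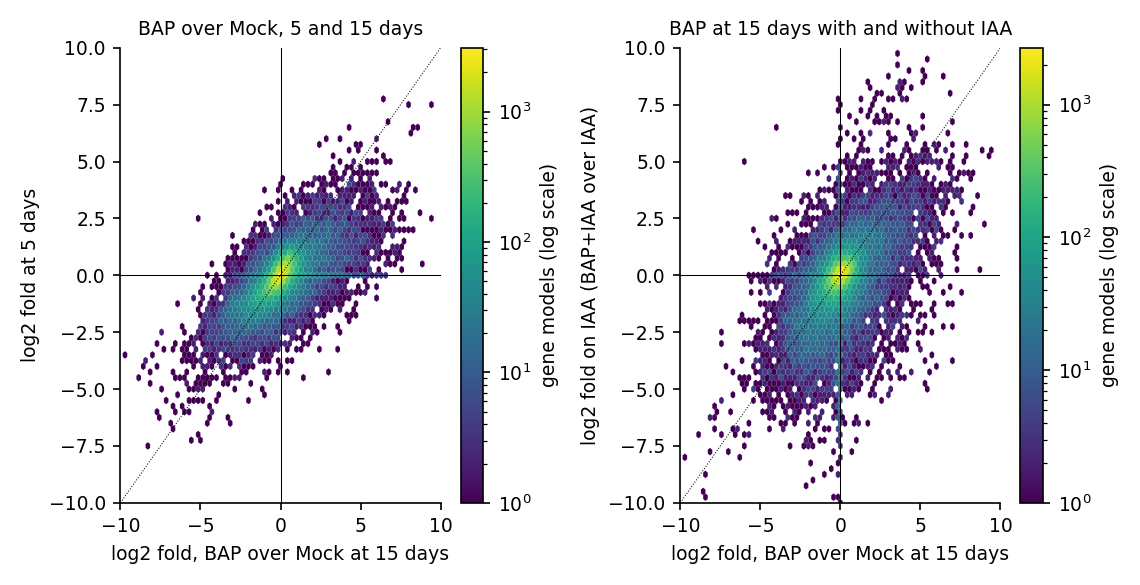
Hexagons count gene models (log colour scale) by their log2 fold of BAP over Mock at 15 days on the horizontal axes against the same fold at 5 days (left, r = 0.67) and against BAP+IAA over IAA at 15 days (right, r = 0.51). The paired contrasts share no library, and dotted lines mark equal folds. Strong rises at 15 days lie below the line on the left, which follows in part from picking them on that axis.

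Neighbouring gene models tended to move together. Identifiers of this annotation are built from a scaffold number and a gene number, and 2261 pairs of tested models carried consecutive gene numbers on 1 scaffold. Both members were called in 442 pairs (19.5%), 404 of them (91.4%) in the same direction and 38 in opposite directions. When a member was higher with BAP its partner was higher in 50.4% of cases, against 15.3% of all members of such pairs. When a member was lower the partner was lower in 56.7%, against 18%. All 18 pairs in which both members changed at least 16-fold changed in the same direction. The log2 folds of partners correlated at r = 0.62 over these pairs. With the strand setting and gene structures not given in the sources used here, reads shared between overlapping, antisense or near-identical models cannot be told apart from separate transcripts.

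The 6 libraries held 13372754 to 16371069 reads in gene models, so 3 reads in a library corresponded to 0.186 to 0.227 CPM. Replicates correlated at r = 0.963 to 0.968 with BAP and 0.969 to 0.972 in Mock on log2 CPM across models, against 0.871 to 0.906 between the groups. Counts of replicates differed beyond sampling noise, with a chi-square per degree of freedom of 6.8 to 14.6. For the 14142 models above 10 CPM the median SD of log2 CPM between replicates was 0.141 with BAP and 0.12 in Mock.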

How the data were processed

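RNA sequencing libraries of hypocotyls were made by a standard Illumina procedure, per the labels' protocols. The authors deposited raw counts of reads for each gene model, without normalisation. Trimmomatic, STAR and HTSeq are named, without versions, per the submitters' processing notes; the genome build, annotation and strandedness were not given in the sources used here. Column names carry a collection number, read here as the order of the days, which the table does not state, so the 15-day reading rests on it.

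Analyses used R 4.3.3 and edgeR 4.0.16. Of 70736 models, 38239 passed filterByExpr over the 12 groups and 32497 were not tested. TMM factors ran from 0.94 to 1.07. A quasi-likelihood model (robust, 24 residual degrees of freedom) of 12 group means took in all 36 libraries, whose totals ran from 12531117 to 22280720 reads, and p-values were adjusted over all tested models. Each SE was the absolute log2 change divided by the square root of the F statistic of its quasi-likelihood test, and the intervals were built from it. CPM used TMM-scaled library sizes, and log2 CPM a prior count of 2. Floors of 3 reads cover counting error only. The model was checked on simulated counts.

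Named models had to pass the test with groups that did not overlap. The largest log2 rise and fall were taken among those with at least 1 CPM in both groups, and the largest gain and loss of CPM among all. The members, groups and limits were chosen with earlier results of these data known. Gene lists and tissue markers planned by name could not be used, because the files do not pair identifiers with names. Alternatives were RLE factors, total counts, other filters, DESeq2 1.42.0, a test against a 1.5-fold change, fewer libraries, a replicate block and leaving out single libraries.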

Additional observations from a re-analysis of the deposited data

Results flagged for a closer look

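The BAP effect differed between collections and with the presence of auxin in direct tests (edgeR, adjusted p of 0.05). Between 15 and 5 days it differed at 675 models, among them MA_112831g0010 with a log2 difference of -4.67. Between 15 and 10 days it differed at 60 models, a count that rested on single libraries. Between presence and absence of IAA it differed at 4001 models, among them MA_19953g0020 with a log2 difference of -8.48 and MA_10103038g0010 with -3.92. Groups of 3 libraries were too small for a test of single outlying libraries.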

How the results depend on the processing

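The 4 named models kept their direction and their call under every alternative run. Counts for BAP against Mock at 15 days stayed within 1.5 times of those given, except that a test against a 1.5-fold change called 2210 higher and 2754 lower. They were 6341 and 6120 with RLE factors, 5980 and 5869 without a filter, 5867 and 5524 with a mean of at least 1 CPM, 6398 and 6037 with DESeq2, 4888 and 5211 from the 6 libraries alone, 5948 and 6079 with the earlier form of edgeR's quasi-likelihood fit (added after seeing the data), and 5754 and 5747 from the 18 BAP and Mock libraries. The difference between 15 and 5 days was called at 864 and 524 models with DESeq2, and that between 15 and 10 days at 273 and 46 with DESeq2 and at 15 and 2 without a filter; the cause was not tested. Leaving out single libraries gave 4849 to 5515 higher and 5321 to 6162 lower, 450 to 572 rises and 183 to 234 falls of at least 16-fold, 154 to 449 and 167 to 455 for 15 against 5 days, 0 to 146 and 0 to 32 for 15 against 10 days (edgeR; 1236 to 1656 at an unadjusted p under 0.05 where 0 were called), 4388 to 4846 and 5741 to 6189 for BAP+IAA against IAA, 1210 to 1951 and 1636 to 2346 for the difference with IAA, and 300 to 436 for the excess of detected models with BAP. Same-numbered BAP and Mock libraries of 15 days deviated together at r = 0.15, 0.1 and 0.02, so the numbers were not taken to pair them. With the replicate block 6287 models were higher and 6514 lower, and the block changed no count by more than 1.5 times. The filter of a mean of at least 1 CPM left 413 rises and 142 falls of at least 16-fold, against 539 and 212 in the main run. Models near the floor of 3 reads limit what folds can be read.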
